A study of Mus musculus with 18 samples.

Results

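N6-methyladenosine (m6A) sites that differed between Mel+LPS and LPS uteri, and that lay clear of every site that differed between LPS and Veh uteri, are described here. They were selected on the deposited lists alone. A site of the Mel+LPS vs LPS lists on chromosomes 1 to 9 was a member when it shared no base with a site of either LPS vs Veh list, whichever its direction. By this rule 7389 of the 11851 Mel+LPS vs LPS sites on these chromosomes were members, among 24330 sites in the 4 lists there. Of the members, 5099 were up in Mel+LPS and 2290 were down, and they are called Mel-only up and Mel-only down sites below. The other 2016 up and 2446 down sites, called shared, had at least 1 base in common with an LPS vs Veh site.

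The uteri came from wild-type pregnant mice on day 5 of pregnancy. Veh mice received 0.9% saline by intraperitoneal injection every day from day 1 to day 4. LPS mice received the same saline and, 30 min after the daily injection on days 3 and 4, lipopolysaccharide (LPS), the outer membrane component of Gram-negative bacteria. Mel+LPS mice received melatonin in place of saline on days 1 to 4 and the same LPS. All 3 groups were pregnant and wild type, and melatonin without LPS was not analysed here. Each group had 3 input libraries and 3 libraries immunoprecipitated with an m6A antibody, 18 in all. Whole uterus was used, so fewer cells of a type and less RNA per cell cannot be told apart. The lists hold no expression levels, so the tissue could not be checked by the levels of its markers.

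m6A is a methyl mark on adenosines of messenger RNA. The METTL3-METTL14 complex writes it within the short DRACH motif (any base but C for D, a purine for R, then A and C, and any base but G for H), FTO and ALKBH5 remove it, and YTH proteins bind it and act on the splicing, translation and decay of the RNA. It is known to gather near stop codons, in 3′UTRs and in long internal exons. In mice the embryo attaches to the uterine wall around this stage of pregnancy. LPS is sensed through TLR4 and MYD88, and melatonin is the hormone of the pineal gland, which acts in part through membrane receptors.

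Each site carried 1 score, for the comparison of its list. It is read here as the log10 likelihood ratio of the authors' differential peak call, a scale that was inferred. On this reading, a higher value means that the reads were better described by a difference between the groups than by none. All deposited sites had a score above 1. The lists give no value per library, which leaves no replicate error to compare with, and no test was made. The intervals are 95% Wilson intervals of shares. They cover counting error only, and sites in 1 gene are not independent. The read depth behind the scores is unknown. Both comparisons used the LPS libraries, so their lists are not independent of each other. A site absent from the LPS vs Veh lists had no listed difference there, which does not show that LPS left it as it was.

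The coding-sequence sites with the highest scores are shown to give an idea of what a member looks like. They are the 3 Mel-only up and the 3 Mel-only down sites of highest score that lay whole in the coding sequence of 1 exon and held a DRACH motif. The sequences are those of the GENCODE transcripts on GRCm38, 5′ to 3′ on the RNA strand, and capitals mark DRACH motifs, which can overlap. The up sites were in Urb2 (chr8:124029250-124029423, plus strand, exon 3 of 9, score 27.5), Zfp266 (chr9:20499288-20499393, minus strand, exon 9 of 9, score 17.2) and Mga (chr2:119917084-119917283, plus strand, exon 3 of 24, score 15.6). The down sites were in Zfp992 (chr4:146466061-146466305, plus strand, exon 4 of 4, score 14.6), Fcgbp (chr7:28086370-28086516, plus strand, exon 5 of 20, score 14.2) and Nat8f7 (chr6:85707189-85707353, minus strand, exon 3 of 3, score 10.8).
Urb2: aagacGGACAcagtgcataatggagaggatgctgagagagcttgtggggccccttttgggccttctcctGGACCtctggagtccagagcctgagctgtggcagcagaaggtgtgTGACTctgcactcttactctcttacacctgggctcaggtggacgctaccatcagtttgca
Zfp266: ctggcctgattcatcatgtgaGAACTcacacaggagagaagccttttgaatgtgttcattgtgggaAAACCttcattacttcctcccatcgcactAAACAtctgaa
Mga: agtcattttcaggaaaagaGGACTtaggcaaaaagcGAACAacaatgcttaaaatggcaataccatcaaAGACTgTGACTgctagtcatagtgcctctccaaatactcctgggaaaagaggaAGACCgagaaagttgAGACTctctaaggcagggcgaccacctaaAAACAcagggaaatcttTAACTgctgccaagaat
Zfp992: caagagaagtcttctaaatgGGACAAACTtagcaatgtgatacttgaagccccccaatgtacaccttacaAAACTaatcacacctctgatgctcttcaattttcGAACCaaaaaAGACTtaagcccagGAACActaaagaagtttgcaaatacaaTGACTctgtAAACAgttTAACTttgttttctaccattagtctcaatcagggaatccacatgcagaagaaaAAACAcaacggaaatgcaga
Fcgbp: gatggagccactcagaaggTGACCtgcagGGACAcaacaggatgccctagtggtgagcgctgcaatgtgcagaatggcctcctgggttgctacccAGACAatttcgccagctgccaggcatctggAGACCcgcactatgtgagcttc
Nat8f7: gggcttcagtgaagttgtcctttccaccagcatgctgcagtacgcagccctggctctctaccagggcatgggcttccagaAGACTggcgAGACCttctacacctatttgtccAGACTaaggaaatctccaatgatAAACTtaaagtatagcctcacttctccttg
The 6 sites held 3, 3, 8, 10, 4 and 4 DRACH motifs, in this order. Zfp266, Zfp992 and Nat8f7 belong to multigene families whose members share sequence, so the source of their reads is uncertain.

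Urb2 codes for a nucleolar protein of ribosome assembly, and Mga for a partner of the MYC-related protein MAX. Zfp266 and Zfp992 code for zinc finger proteins. Fcgbp codes for a mucus protein that binds the Fc part of IgG. In the 3′UTRs, where printing is kept to short windows, 21 bases around the DRACH motif nearest the centre of a site are shown for genes of the lists described below. They were chosen after the values were seen, as the 3 list genes of highest score with such a window in each direction. The up windows were in Clock (chr5:76216377-76216397, minus strand), Srxn1 (chr2:152109924-152109944, plus strand) and Itgav (chr2:83803418-83803438, plus strand), and the down windows in Ncoa3 (chr2:166072665-166072685, plus strand), Wnt10a (chr1:74803981-74804001, plus strand) and Ryk (chr9:102907139-102907159, plus strand).
Clock: aagagcacTAACAgtgttggt
Srxn1: catcccctGGACTggtactgt
Itgav: aaatcccaGGACTgtattgct
Ncoa3: ttctctctAAACTgtgcccct
Wnt10a: ggggaagaAAACTaaaaggca
Ryk: actaggttGAACCaaaagggg
The sites around these windows had scores of 10.6, 9.43 and 7.45 for the up sites and of 3.40, 3.36 and 2.49 for the down sites. Their motifs lay 314, 744 and 95 bases past the stop codon in Clock, Srxn1 and Itgav, and 2534, 373 and 190 bases past it in Ncoa3, Wnt10a and Ryk.

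The share of Mel+LPS vs LPS sites that were Mel-only differed with direction. It was 71.7% (95% CI 70.6 to 72.7) of up sites and 48.4% (46.9 to 49.8) of down sites. On the 9 chromosomes it ranged from 68.9% to 74.4% of up sites and from 45.1% to 50.3% of down sites, so the directions did not overlap on any chromosome. Among down sites the share was lower at higher scores. It was 59.1% (55.9 to 62.3) of 895 down sites with scores from 1 to 1.5 and 25% (18.0 to 33.6) of 116 with scores of 10 or more. Among up sites it was 76.5% (74.4 to 78.6) of 1556 sites with scores from 1 to 1.5, 62.5% (59.4 to 65.4) of 988 with scores from 3 to 5, and 70.9% (64.2 to 76.8) of 196 with scores of 10 or more.

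**Figure D1:**
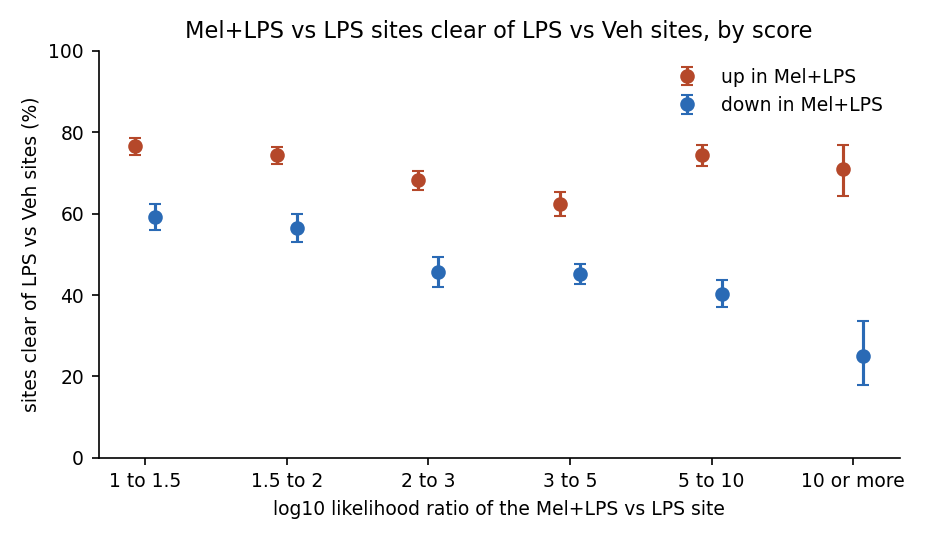
Share of Mel+LPS vs LPS sites on chromosomes 1 to 9 that shared no base with an LPS vs Veh site (y axis, percent), by the site's log10 likelihood ratio (x axis), with 95% Wilson intervals. Down sites run from 59.1% in the lowest bin to 25% in the highest, and up sites stay between 62.5% and 76.5%.

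The scores were those that put a site on a list and are given as a description. Mel-only up sites had a median score of 2.08 (quartiles 1.53 and 3.64, highest 168) and a median width of 163 bases. Mel-only down sites had a median score of 2.46 (quartiles 1.53 and 3.85, highest 44.0) and a median width of 162 bases. Shared up sites had a median score of 2.34, and shared down sites had one of 3.84. Shared sites were wider, with median widths of 187 bases for up and 186.5 for down sites. Most members lay more than 1000 bases from an LPS vs Veh site, counted on the genome with introns included. The median gap to the nearest one was 7998 bases for up members and 10353 bases for down members. At the border of the rule, 8 up members and 7 down members touched an LPS vs Veh site with no base between, with median scores of 1.57 and 4.74. Just outside it, 1 up site and 4 down sites shared exactly 1 base, with a score of 1.62 and a median score of 4.12. A gap of at most 100 bases was seen in 4.71% of up members and 3.84% of down members. One of at most 500 bases was seen in 14.4% and 13.8%, and one of at most 1000 bases in 21.4% and 20.7%.

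Many sites carried exactly the same score. In the down list, the single value 3.85 stood at 723 of 4736 sites, of which 385 were Mel-only, and 6.29 stood at 93, of which 51 were Mel-only. In the up list, 5.42 stood at 233 of 7115 sites, of which 198 were Mel-only. Scores held by 10 or more sites of a list are called repeated scores. They made up 21.3% (19.7 to 23.0) of Mel-only down sites and 4.98% (4.42 to 5.61) of Mel-only up sites. The listed centre lay on a GENCODE exon in 21.5% of down and 31.9% of up members at a repeated score. It did so in 55.9% and 57.5% of the others. By class, 63.7% of the 488 Mel-only down sites at a repeated score were intron or distal intergenic and 4.30% were 3′UTR, against 26.9% and 31.1% of the 1802 others. Of the 254 Mel-only up sites at a repeated score, 48.4% were in the intron or intergenic classes, against 15.3% of the 4845 others.

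By the deposited classes, Mel-only up sites lay mainly in coding or other exons and Mel-only down sites were spread over exons, 3′UTRs, introns and intergenic sequence. The class of exons other than the first held 47.0% (45.6 to 48.3) of up members and 23.6% (21.9 to 25.4) of down members. Introns of any order held 13.1% (12.2 to 14.1) of up and 21.4% (19.8 to 23.1) of down members, and distal intergenic sequence held 3.86% (3.37 to 4.43) and 13.3% (11.99 to 14.8). Without repeated scores, introns held 11.99% (11.1 to 12.9) of up and 15.8% (14.2 to 17.5) of down members, and distal intergenic sequence held 3.32% (2.85 to 3.87) and 11.1% (9.73 to 12.6). The 5′UTR class held 5.86% (5.25 to 6.54) of up members and 3.32% (2.66 to 4.13) of down members. Promoter classes, within reach of an annotated start, held 6.90% and 8.65%.

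The 3′UTR class held 18.0% (16.9 to 19.04) of up members and 25.4% (23.7 to 27.2) of down members, but this difference depended on the score. Without repeated scores the shares were 18.6% (17.5 to 19.7) and 31.1% (29.04 to 33.3). Among sites with scores below 2 the 3′UTR class held 22.1% (20.5 to 23.8) of 2388 up members and 39.3% (36.3 to 42.5) of 961 down members. Among sites with scores of 3 or more it held 12.3% (10.8 to 14.01) of 1585 up members and 9.89% (8.21 to 11.9) of 1021 down members. The intervals of this pair overlapped. Without repeated scores, the shares at scores of 3 or more were 13.2% (11.5 to 15.1) and 14.5% (11.8 to 17.6), and the intervals again overlapped. The intron and distal intergenic classes together held 28.9% (26.7 to 31.2) of up members and 55.8% (52.8 to 58.9) of down members with scores of 3 or more. Without repeated scores these were 25.6% (23.3 to 28.0) and 48.2% (44.1 to 52.3).

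Mel-only sites also differed from shared sites of the same direction in some classes. In the 3′UTR class, the share was 18.0% in Mel-only up sites and 25.1% (23.3 to 27.0) in shared up sites, while it was 25.4% in Mel-only down sites and 20.4% (18.9 to 22.1) in shared down sites. The intron share of up sites was 13.1% in Mel-only and 7.94% (6.84 to 9.20) in shared sites. Distal intergenic sequence held 13.3% of Mel-only down sites and 20.5% (18.9 to 22.1) of shared down sites. The intervals of each of these pairs did not overlap, but those of the following pairs did. Exons other than the first held 47.0% of Mel-only and 44.35% (42.2 to 46.5) of shared up sites. For down sites these shares were 23.6% and 21.4% (19.8 to 23.05). Introns held 21.4% of Mel-only and 24.2% (22.6 to 26.0) of shared down sites. Distal intergenic sequence held 3.86% of Mel-only and 4.81% (3.96 to 5.835) of shared up sites. Without repeated scores, the 3′UTR class held 18.6% of Mel-only and 25.6% (23.7 to 27.6) of shared up sites, and 31.1% of Mel-only and 23.7% (21.9 to 25.6) of shared down sites. In the same way introns held 11.99% of Mel-only and 7.42% (6.34 to 8.66) of shared up sites, and distal intergenic sequence held 11.1% of Mel-only and 19.8% (18.1 to 21.6) of shared down sites. Mel-only and shared sites also differed in score, with medians of 2.08 and 2.34 for up sites and 2.46 and 3.84 for down sites. The class shares of members varied with score, and Mel-only and shared sites were not compared at equal scores. The 3′UTR contrast of down sites also depended on position. By listed centre on coding transcripts, the 3′UTR held 62.5% (59.1 to 65.7) of Mel-only and 55.3% (51.6 to 58.9) of shared down sites. With centres moved 100 bases toward the 5′ end these were 39.9% (37.0 to 42.8) and 39.04% (36.0 to 42.2), and the intervals overlapped. The moved shares of up sites still differed, at 16.3% (15.2 to 17.5) in Mel-only and 22.8% (20.8 to 24.9) in shared sites.

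**Figure D2:**
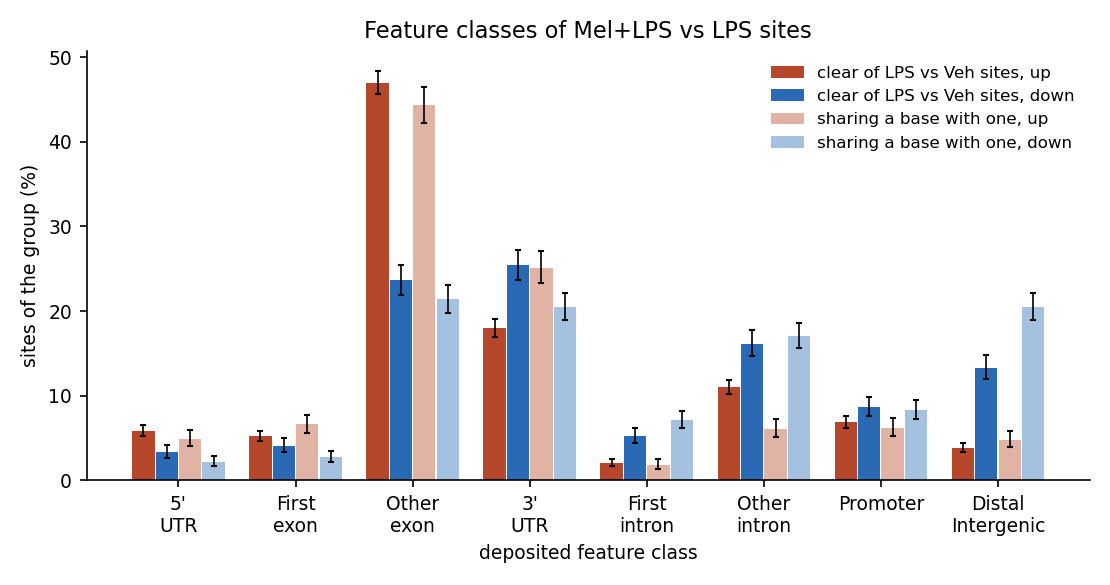
Share of sites (y axis, percent of the group) in each deposited feature class (x axis), for Mel-only and shared sites of each direction, with 95% Wilson intervals. Exons other than the first hold 47.0% of Mel-only up sites and 23.6% of Mel-only down sites.

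The sites did not sit squarely on exons. The centre of 43.3% (41.9 to 44.7) of up members and 35.7% (33.8 to 37.7) of down members lay on an exon of the chosen coding transcript of a gene. When the centre was moved 100 bases toward the 5′ end of the transcript, this became 79.2% (78.1 to 80.3) of up members and 48.2% (46.2 to 50.3) of down members. Without repeated scores the shares were 44.5% (43.1 to 45.9) and 42.6% (40.3 to 44.9) as listed, and 81.2% (80.1 to 82.3) and 56.5% (54.2 to 58.8) after the move. Among the 4460 up members in the body of a coding gene of 1 strand, 48.2% of centres lay on an exon as listed, 88.7% after a move of 100 bases in the 5′ direction and 42.0% after a move of 100 bases in the 3′ direction. For the 1574 such down members the values were 49.1%, 67.0% and 43.1%. Shared sites showed the same shape, with 90.5% of shared up sites and 61.0% of shared down sites on an exon after the move in the 5′ direction. How the displacement arose was not tested.

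**Figure D3:**
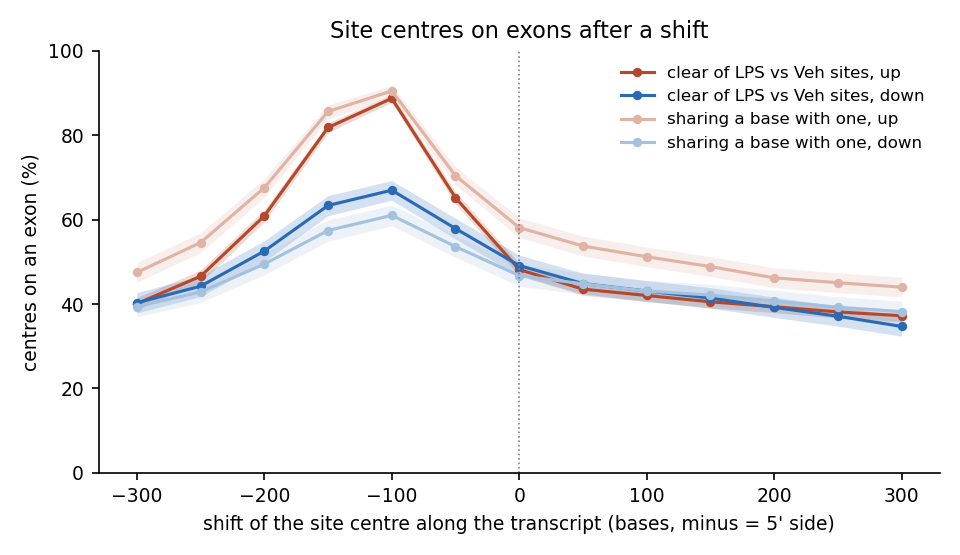
Share of site centres on an exon (y axis, percent) after a shift of the centre along the transcript (x axis, bases, minus is the 5′ side), in the body of coding genes of 1 strand, with 95% Wilson intervals as bands. All 4 groups are highest at a shift of 100 bases to the 5′ side, where up members reach 88.7% and down members 67.0%.

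Along transcripts, up members were seen more in internal coding exons and down members more in the last exon. Of the 2208 up members whose centre lay on the chosen transcript, 62.0% (59.9 to 64.0) were in coding sequence and 36.1% (34.1 to 38.1) in the 3′UTR. Of the 818 down members, 35.2% (32.0 to 38.5) were in coding sequence and 62.5% (59.1 to 65.7) in the 3′UTR. Last exons held 53.3% (51.2 to 55.3) of these up members and 78.2% (75.3 to 80.9) of these down members. This order held at scores of 3 or more, where the 3′UTR held 33.7% (29.6 to 38.0) of 481 up members and 50% (42.5 to 57.5) of 166 down members. After the move of 100 bases, the 3′UTR held 16.3% (15.2 to 17.5) of 4039 up members and 39.9% (37.0 to 42.8) of 1104 down members, and internal exons held 62.4% (60.9 to 63.9) and 35.6% (32.8 to 38.5).

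By the listed centre, both directions had their peak just past the stop codon. Within 200 bases of it lay 19.2% (17.7 to 20.95) of up members and 27.8% (24.8 to 30.9) of down members with a centre on the transcript. The bin from the stop codon to 200 bases past it was the fullest in both, with 256 of 2208 up and 140 of 818 down members. Up members ran further into the coding sequence. With minus for bases before the stop codon, the median position was -466.5 for up members and 138.5 for down members. After the move of 100 bases it was -831 for up and -117.5 for down members, both before the stop codon, and 14.8% (13.8 to 16.0) and 26.7% (24.2 to 29.4) lay within 200 bases of it. The same order was seen within genes. In 192 genes, up and down members lay on the same transcript, and the mean position of the up members was nearer the 5′ end in 151 of them, 78.6% (72.3 to 83.8).

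**Figure D4:**
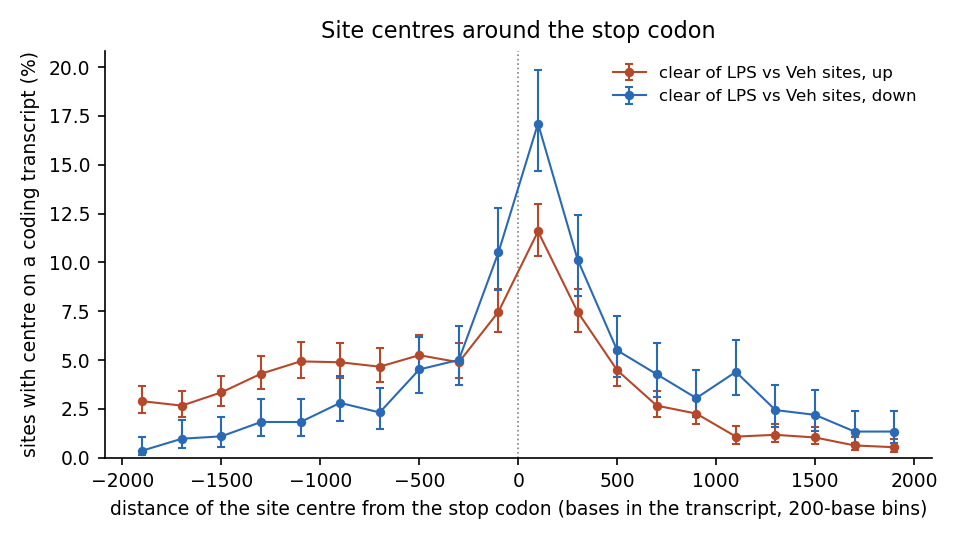
Share of Mel-only up (2208) and down (818) sites with a centre on a coding transcript (y axis, percent) by the distance of the centre from the stop codon (x axis, bins of 200 bases, minus is before it), with 95% Wilson intervals. Both peak just past the stop codon, and up sites extend further into the coding sequence.

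Motifs were counted in the 2207 up and 816 down members with a centre on a coding transcript for which a neighbouring stretch could be compared, so intronic and intergenic members were not searched. DRACH motifs were slightly denser in these members than in stretches of equal length on either side of them in the same transcript. These up members held 24.2 DRACH motifs per 1000 bases and their neighbours 21.3, a ratio of 1.14 (95% counting interval 1.11 to 1.17). These down members held 25.1 and their neighbours 21.5, a ratio of 1.17 (1.12 to 1.22). The motif is common, so 96.7% of these up members and 95.1% of their neighbours held at least 1, as did 96.8% and 95% for these down members. GGAC, which is part of a DRACH motif when A, C or T follows it, was seen in 61.9% of up members against 48.2% of neighbours, and in 53.1% of down members against 45.4%. Only the RNA strand was searched. In bins of 25 bases, the DRACH density was highest from 75 to 50 bases before the centre in both directions, at 27.1 per 1000 bases for up and 28.7 for down members, against 20.8 and 21.7 at 300 bases before the centre. The densest place was thus on the 5′ side of the listed centre, as were the exons.

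The members reached many genes, mostly with 1 site each. The centre of 2868 up members lay on an exon of 2187 genes, and that of 1112 down members on an exon of 1020 genes. Against the 5691 genes on chromosomes 1 to 9 with a site of any list on their exons, 38.4% had a Mel-only up site and 17.9% had a Mel-only down site. These 2 percentages are the background for every gene list below. Of the 2947 genes with a member, 260 had both directions. As the rule keeps members apart from LPS vs Veh sites but not the genes, 1552 of the 2947 genes (52.7%, 50.9 to 54.5) had no LPS vs Veh site on their exons. This count is a description, since both comparisons share the LPS libraries. Coding genes held 2648 of the up and 966 of the down members on exons, and long intergenic non-coding RNAs held 28 and 43. The lists give no strand, so where genes overlap the source cannot be told apart. The centre lay on exons of more than 1 gene in 1.92% of up members and 1.62% of down members.

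By the exon at the listed centre, the genes with most Mel-only up sites were long ones, and the counts depended on this rule. Up members lay on exons with a median length of 1747 bases by the listed centre and 354 after the move. Genes with at least 5 up members numbered 11 by the listed centre and 42 by the moved centre. Spen, a large nuclear RNA-binding co-repressor, had 9, with scores from 1.25 to 3.45, of which 8 were in a single coding exon of 8020 bases. Igsf10, of the immunoglobulin superfamily, had 8, with scores from 1.28 to 2.89, of which 2 were in the 3′UTR and 6 in coding sequence. The centres of those in the 3′UTR also lay on an exon of Med12l. Macf1, which links actin to microtubules, had 7, with scores from 2.10 to 8.03. Its sites with scores of 8.03, 7.53, 4.68 and 2.36 were assigned to D830031N03Rik, which overlaps it, and lay off the chosen coding transcript of Macf1. Those on the chosen transcript had scores from 2.10 to 2.38. Col6a3, a chain of the collagen VI of the connective tissue, had 7, with scores from 1.82 to 6.79. Mga had 6, with scores from 1.35 to 15.6. Some of these members lay close to LPS vs Veh sites. The gap to the nearest one ran from 7 to 2101 bases in Igsf10, where each nearest site was an up site. It ran from 421 to 4100 bases in Spen and from 108 to 14281 in Mga. In Macf1 it was 141 to 13332 bases and in Col6a3 2261 to 21614. Several members in 1 gene share its RNA and are not separate evidence.

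Down members were seldom clustered, and only 9 genes had 3 or more. Kcnq1ot1, the imprinted long non-coding RNA antisense to Kcnq1, had 5, with scores of 8.11, 6.197, 3.85, 3.85 and 1.66, of which both values of 3.85 are a repeated score. It also held an up member with a score of 7.999 (chr7:143223893-143224101). Zfp865 had 4 with scores from 1.32 to 2.69, in a place where Ccdc106 and other genes overlap it. Zswim9, Gm37607 and Lcorl had 3 each, and 1 of those in Lcorl was at the repeated score of 3.85. Among genes with both directions, the highest lower score was that of Kcnq1ot1, followed by Prr14l and Zswim9. In Prr14l an up member (chr5:32830165-32830346) scored 7.67 and a down member (chr5:32843989-32844138) scored 7.13, in different coding exons. In Zswim9 an up member scored 6.89, in sequence that also lies in Lig1, and its down members scored 17.4, 6.94 and 1.83.

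The highest single scores were mostly at sites whose centre was on no GENCODE exon. The highest Mel-only up site scored 168 (chr8:123432904-123433037) and was classed as distal intergenic and assigned to Def8, in whose GENCODE body its centre lies. The next scored 122 (chr1:170947172-170947429) in an exon of the predicted gene Gm39701. A site in the first intron of Tdo2, the tryptophan dioxygenase, scored 30.9 (chr3:81975526-81975653), and it lies on a Tdo2 exon after the move of 100 bases. A site in an intron of Coro2b, of the actin-binding coronin family, scored 29.1 (chr9:62442789-62443015) and was assigned to Gm40523. Urb2 followed with 27.5. A site in an exon class of Mob4, a part of the STRIPAK phosphatase complex, scored 24.8, and one of Knstrn, a kinetochore protein, scored 24.0. Intergenic sites assigned to Gm5154 and Gm29012 scored 28.9 and 23.5, and a 5′UTR site of Btbd3 scored 21.7. None of these 10 scores is a repeated score.

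The highest Mel-only down sites had lower scores. A distal intergenic site assigned to 1700063A18Rik scored 44.0 (chr1:96211579-96211829). Shisa3, an inhibitor of Wnt and FGF receptors, had a 3′UTR site with a score of 19.1 (chr5:67613462-67613675), 2095 bases past the stop codon. A site in an intron of Atrn scored 18.8 and was assigned to Gm30286. Zswim9 followed with 17.4 in an exon (chr7:13269165-13269357). Introns of Fancg, a Fanconi anaemia protein of DNA repair, and of Ntng2, a netrin, held sites with scores of 16.8 and 15.2. Sites of Olfr1217, an olfactory receptor gene, Zfp992 and Fcgbp scored 15.1, 14.6 and 14.2, and an intergenic site assigned to Mir710 scored 17.4. Of the 10 sites, 5 had their centre on an exon, against 2 of the 10 up sites.

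The gene lists were read against the background of 38.4% of genes with a Mel-only up site and 17.9% with a down site. Over all members on exons, the median score was 1.94 for up and 1.82 for down. Counts in lists of this size are a description and single out no list.

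The m6A regulators, the genes that write, remove and read the mark itself, had up members in 9 of 11 genes with any site (81.8%) and down members in 2 of 11 (18.2%). Their 16 up members had a median score of 1.54, below that of all up members on exons. Ythdc1, the nuclear reader, had an up member in coding sequence with a score of 4.05 (chr5:86816477-86816699) and a down member with one of 1.37. The centre of this up member also lay on an exon of Gm43055. Virma, the scaffold of the writer complex, had 4 up members with scores from 1.40 to 3.76. Ythdf3, a cytoplasmic reader, had an up member in the 3′UTR with a score of 3.62 (chr3:16214208-16214363) and one in coding sequence with 1.36. Mettl5, which methylates ribosomal RNA, had 1 up member with a score of 2.20. The other gene with a down member was Zcchc4, another ribosomal RNA methyltransferase, with a score of 1.61, and it was named after its value was seen.

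The genes of the Toll-like receptor and NF-κB pathway, through which LPS is sensed, had up members in 11 of 25 genes (44.0%) and down members in 6 of 25 (24.0%), and no gene had both. On the receptors, Tlr5, the flagellin receptor, had a down member in coding sequence with a score of 8.19 (chr1:182975257-182975434), and Tlr9, the receptor of CpG DNA, had an up member with one of 4.40 (chr9:106225776-106225903). Bcl3, an atypical IκB protein, had an up member in the 3′UTR with a score of 2.95, and Tirap, an adaptor of TLR4, had up members with scores of 2.26 and 1.65. The centre of the Tirap site with a score of 2.26 also lay on an exon of Gm39318. The other scores of this list ran from 1.21 to 2.13.

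Interferon response genes had up members in 4 of 19 genes (21.1%) and down members in 8 of 19 (42.1%), of which 2 genes had both. The scores were low, with a median of 1.40 over the 9 down members. Isg15, a ubiquitin-like protein, had a down member with a score of 2.27 (chr4:156199455-156199981), classed as 3′UTR, with its centre in coding sequence. Irf7, which drives interferon genes, had one with a score of 1.60. Gbp7, a guanylate-binding protein, had an up member in the 3′UTR with a score of 1.89, and Adar, which edits adenosines in double-stranded RNA, had one with 1.83. Gbp7 has close relatives among its neighbours, so the source of its reads is uncertain.

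Of the genes of uterine receptivity and decidualization, 11 of 29 (37.9%) had an up member and 5 of 29 (17.2%) a down member, close to the background. Bmpr2, a receptor of bone morphogenetic proteins, had up members in coding sequence with scores of 7.66 (chr1:59863832-59864013) and 2.66. Itgav, the integrin αv chain, had an up member in the 3′UTR with a score of 7.45 (chr2:83803307-83803540). Wnt4, which acts in decidualization, had 3′UTR up members with scores of 7.13 (chr4:137297087-137297197) and 5.33 (chr4:137298986-137299115). Ncoa3, a steroid receptor coactivator, had a down member in the 3′UTR with a score of 3.40 and an up member in coding sequence with 1.57. The other genes with a down member, named after their values were seen, were Ltf, Hoxa9, Muc1 and Nr2f2, with scores of 2.59, 2.08, 1.72 and 1.10, and Nr2f2 also had an up member with a score of 2.30.

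Genes of the extracellular matrix had up members in 14 of 24 genes (58.3%) and down members in 3 of 24 (12.5%). Col1a2 and Col3a1, chains of the fibrillar collagens I and III, had up members with highest scores of 9.29 (chr6:4527163-4527298) and 6.04 (chr1:45322551-45322661). Both sites were classed as intron and lay on an exon of the coding transcript after the move. Col6a3 had, beside its 7 up members, a down member with a score of 6.29, which is a repeated score. Lamc1, a laminin chain, had a 3′UTR up member with a score of 3.36. Smooth muscle contractile genes had up members in 4 of 13 genes (30.8%) and down members in 3 of 13 (23.1%). In this list Cald1, which codes for caldesmon, had up members with scores from 1.58 to 3.32, and Sorbs2, an adaptor of the actin cytoskeleton, a down member with 4.96. Synm, an intermediate filament protein, had up members with scores of 3.13 and 2.04, and Synpo2 had 4 with scores from 1.28 to 2.56.

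Wnt signalling genes had up members in 11 of 26 genes (42.3%) and down members in 6 of 26 (23.1%). Lrp6, the coreceptor of Wnt ligands, had up members in coding exons with scores of 11.4 (chr6:134484203-134484372) and 1.26. Among the ligands, Wnt4 had the up members given above and Wnt10a a down member in the 3′UTR with a score of 3.36 (chr1:74803851-74804148). Fzd1, of the Frizzled receptors, had an up member with a score of 3.47.

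Clock genes and melatonin receptors had up members in 3 of 8 genes (37.5%) and a down member in 1 of 8 (12.5%). Clock itself, a transcription factor of the circadian oscillator, had 3′UTR up members with scores of 10.6 (chr5:76216265-76216453) and 3.08 (chr5:76216559-76216785). Per2, a repressor in the same loop, had an up member with a score of 2.20 and Npas2, a partner of BMAL1, one with 1.41. Bhlhe41, another repressor, had a down member with a score of 1.44, with its centre also on an exon of Gm43909.

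Autophagy genes had up members in 7 of 13 genes (53.8%) and down members in 6 of 13 (46.2%), and 2 genes had both. Vps13d, a lipid transfer protein, had up members with scores of 11.03 (chr4:145156467-145156597) and 3.69. Tsc1, which restrains MTOR, had a down member with a score of 6.29, a repeated score, and Mtor had an up member with 5.42, also a repeated score, and a down member with 1.82. Pik3r4, a subunit of the class III PI3-kinase complex, had up members with scores of 3.61 and 2.08 and a down member with 1.25. Apoptosis genes had an up member in 1 of 15 genes (6.67%) and down members in 4 of 15 (26.7%). The down members were in Mdm4, a regulator of p53, with 3.85 (a repeated score), Dffa, an inhibitor of a nuclease of apoptosis, with 2.61, Aven with 1.97 and Bid with 1.10, of which Bid was named after its value was seen. The up members were in Parp1, which senses breaks in DNA, with scores of 2.60 and 1.09.

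Of the NRF2 and antioxidant genes, 5 of 12 (41.7%) had an up member and 2 of 12 (16.7%) a down member. Srxn1, which repairs peroxiredoxins, had an up member with a score of 9.43 (chr2:152109835-152110034) and a down member with 1.216 in the same 3′UTR. Prdx2, a peroxiredoxin, had an up member with a score of 2.78, and Nfe2l2, which codes for NRF2, one with 1.77. Keap1, its inhibitor, had a down member with a score of 1.70. Prostaglandin synthesis and receptor genes had up members in 3 of 10 genes (30.0%) and down members in 0 of 10 by the exon at the centre, while 2 of 13 had one by the moved centre and 2 of 12 by the assigned gene. Ptger3, a PGE2 receptor, had an up member with a score of 2.499, Hpgds, a PGD2 synthase, had 2.44 and 1.98, and Ptgir, the prostacyclin receptor, had 3 from 1.51 to 1.68.

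Leukocyte marker genes, which stand for the blood cells in the tissue, had up members in 4 of 11 genes (36.4%) and down members in 0 of 11. Ptprc, the pan-leukocyte antigen CD45, had an up member with a score of 7.62 (chr1:138112058-138112218). Cd3g, a T cell gene, had one with 2.37, Csf3r, the receptor of the granulocyte growth factor, had 1.995, and Spi1, a myeloid transcription factor, had 1.95. Expression levels were not in the lists, and the part of leukocyte numbers in these sites was not tested.

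The counts depended on how a site was given to a gene. When the gene was the one whose coding exon held the centre moved by 100 bases, 47.4% of 5626 genes with any site had an up member and 17.8% a down member. By this rule up members were in 8 of 20 interferon response genes, 5 of 18 apoptosis genes, 8 of 16 smooth muscle genes, 18 of 32 Wnt genes, 23 of 29 matrix genes and 11 of 13 m6A regulators. They were in 4 of 10 clock genes, 13 of 26 Toll-like receptor and NF-κB genes, 5 of 13 leukocyte genes, 15 of 30 receptivity genes, 6 of 15 autophagy genes, 8 of 18 antioxidant genes and 4 of 13 prostaglandin genes. Down members were in 8 of the 20 interferon response genes, 4 of the 18 apoptosis genes, 3 of the 16 smooth muscle genes, 7 of the 32 Wnt genes, 3 of the 29 matrix genes and 3 of the 13 m6A regulators. They were in 3 of the 10 clock genes, against 1 of 8 by the listed centre, and in 6 of the 26 Toll-like receptor and NF-κB genes, 0 of the 13 leukocyte genes, 7 of the 30 receptivity genes, 7 of the 15 autophagy genes, 2 of the 18 antioxidant genes and 2 of the 13 prostaglandin genes.

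**Figure D5:**
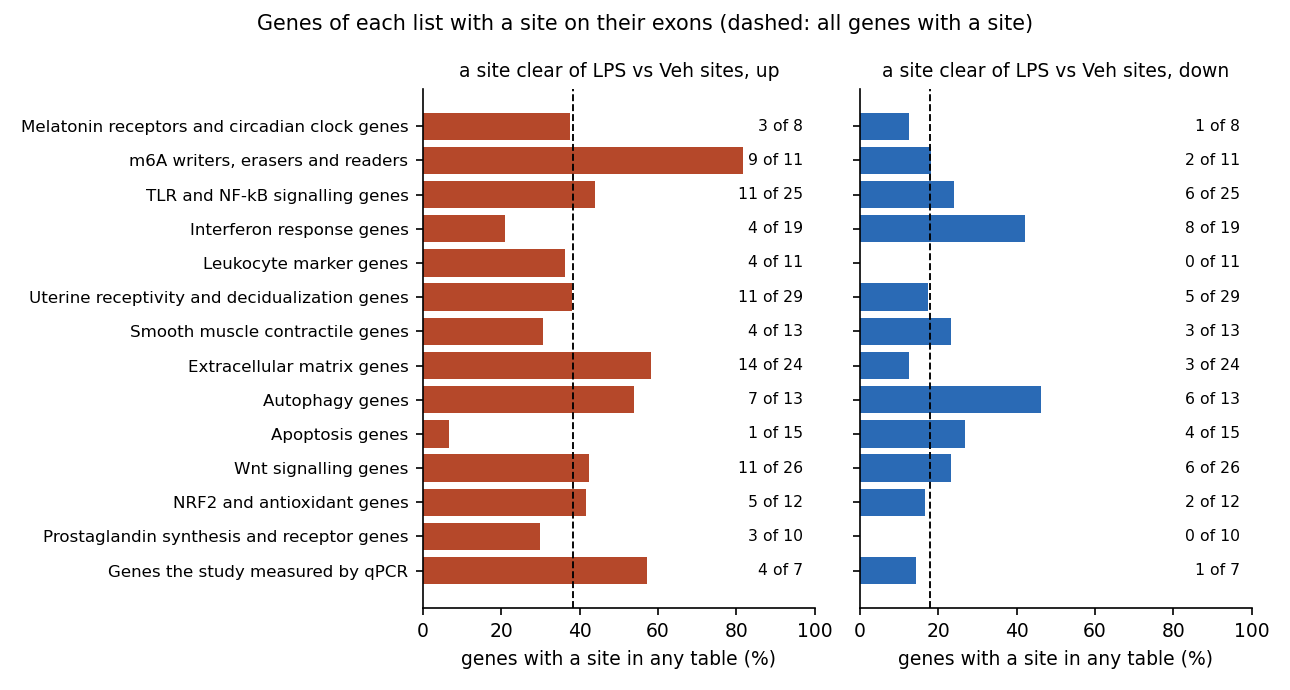
Percent of genes with a site of any list on their exons (x axis) that had a Mel-only up site (left) or down site (right), for each gene list, with the number of genes at the right of each bar. The dashed lines are the values over all such genes, 38.4% and 17.9%. Counts in lists of this size single out no list.

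A further list held the genes also measured by quantitative PCR in these uteri. Of these, 7 on chromosomes 1 to 9 had a site of any list on their exons. Up members were in 4 of the 7, Mettl14, Fto, Ythdf2 and Tlr4, and a down member in 1, Myd88. Mettl14, a subunit of the writer, had an up member with a score of 2.18 (chr3:123371138-123371332), and a down member with a score of 2.15 lay on its exon after the move of 100 bases. The demethylase Fto had up members with scores of 1.57 and 1.36, and the reader Ythdf2 one with 1.30. The Ythdf2 member lay 95 bases from an LPS vs Veh down site on the same exon, with a score of 2.57. A shared Mel+LPS vs LPS up site, with a score of 1.74, overlapped that down site. Tlr4, the LPS receptor, had an up member in coding sequence with a score of 1.58 (chr4:66840198-66840308). On the same exon, 136 bases from this member, an LPS vs Veh up site (chr4:66839896-66840061) scored 2.20. An LPS vs Veh down site on that exon (chr4:66841774-66841939) scored 1.27. Myd88, the adaptor of most Toll-like receptors, had a down member in the 3′UTR with a score of 1.49 (chr9:119336383-119336493), and no other site of the 4 lists was on its exons. Ythdf1 and Bcl2 had Mel+LPS vs LPS sites that were all shared. The sites assigned to Mtnr1b, the melatonin receptor, and to Bax lay on exons of Fat3 and Dhdh, and a member assigned to Mtnr1b carried the repeated score of 3.85. Atg7 had only an LPS vs Veh site, in an intron with its own exon upstream, and Casp9 had no site in the lists.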

How the data were processed

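m6A was measured by immunoprecipitation and sequencing in uteri of Veh, LPS and Mel+LPS mice, with 3 input and 3 immunoprecipitated libraries in each group. Per the submitters' processing notes, STAR 2.5.2a, MACS2 3.4, ChIPseeker 1.22.1, HOMER 4.10 and the build mm10 were used. How the replicates were combined is not given in the sources used here. The authors deposited 4 lists of differential sites, each site with a score that is read here as the MACS2 log10 likelihood ratio, a feature class and an assigned gene. The deposited LPS vs Veh down list ends within chromosome 10, so chromosomes 1 to 9 were used, with 6220 up and 6259 down LPS vs Veh sites and 7115 up and 4736 down Mel+LPS vs LPS sites.

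Sites were compared by shared bases. A site was given to the gene whose GENCODE M21 exon held its centre, and positions were read on 1 coding transcript for each of 11976 genes. Motifs were counted in sites and in stretches of the same length directly on either side in the same transcript. The named genes were, for each direction, the 10 sites of highest score, the 5 genes with most members, the 3 genes with both directions and the highest lower score, up to 4 genes of each list by score, and the genes measured by quantitative PCR, of which 1 is not reported here. Members and gene lists were chosen with earlier results of these data known. Alternatives varied the score minimum, the gap or overlap, the gene rule, the position and the motif. The code was tested on simulated data and ran in Python 3.11.15 with pandas 2.3.3, NumPy 2.4.6, SciPy 1.17.1 and matplotlib 3.10.9.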

Additional observations from a re-analysis of the deposited data

How the results depend on the processing

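Under 14 alternatives for 15 results, 149 values were computed. Of these, 70 stayed within the 95% interval of the value or, for a count, within 1.5 times of it, and 79 moved. The Mel-only share stayed higher for up than for down sites under every alternative that gave it. The up and down shares in the 3′UTR class had overlapping intervals at scores of at least 2 and of at least 3. The moved values follow, in which up and down mean Mel-only up and Mel-only down sites. With scores of at least 2 in all lists, the number of up members was 3137, the Mel-only shares of up and down sites were 79.4% and 51.0%, the up and down shares in the 3′UTR class were 15.8% and 17.3%, the down share near the stop codon was 24.1%, the up and down median scores were 3.26 and 3.85, the shares of genes with up and down members were 35.6% and 15.2% and the share of genes without an LPS vs Veh site was 69.3%. With scores of at least 3 in all lists, the numbers of up and down members were 1884 and 1259, the Mel-only shares of up and down sites were 82.0% and 52.4%, the up and down shares in the 3′UTR class were 13.6% and 12.4%, the up and down shares near the stop codon were 15.8% and 22.1%, the up and down median scores were 5.42 and 4.04, the shares of genes with up and down members were 30.7% and 15.1% and the share of genes without an LPS vs Veh site was 76.7%. With scores of at least 3 in the Mel+LPS vs LPS lists alone, the numbers of up and down members were 1585 and 1021, the Mel-only shares of up and down sites were 68.9% and 42.5%, the up and down shares in the 3′UTR class were 12.3% and 9.89%, the up and down shares near the stop codon were 14.8% and 24.1%, the up and down median scores were 5.42 and 3.88, the shares of genes with up and down members were 13.8% and 5.97% and the share of genes without an LPS vs Veh site was 48.3%. When a gap of up to 100 bases also made a site shared, the Mel-only shares of up and down sites were 68.3% and 46.5%, the share of genes with up members was 36.5% and the share of genes without an LPS vs Veh site was 54.7%. When a gap of up to 500 bases did so, the Mel-only shares of up and down sites were 61.3% and 41.7%, the up share in the 3′UTR class was 16.4%, the up and down median scores were 2.13 and 2.61, the shares of genes with up and down members were 32.2% and 14.9% and the share of genes without an LPS vs Veh site was 60.7%. When only an overlap of at least 50% of the site made it shared, the Mel-only shares of up and down sites were 76.4% and 51.8%, the shares of genes with up and down members were 41.2% and 19.4% and the share of genes without an LPS vs Veh site was 49.4%. With 1 site per assigned gene and list, the Mel-only shares of up and down sites were 77.9% and 58.6%, the up share near the stop codon was 20.97%, the up and down median scores were 2.48 and 3.10, the shares of genes with up and down members were 36.0% and 19.4% and the share of genes without an LPS vs Veh site was 58.4%. Without distal intergenic sites, the Mel-only share of down sites was 50.5%, the down share in the 3′UTR class was 29.3% and the down median score was 2.25. With the class read from the centre on 1 transcript, the up and down shares in the 3′UTR class were 36.1% and 62.5%. After the move of 100 bases, the up share near the stop codon was 14.8% and the up and down motif ratios were 1.09 and 1.10. With GGAC, the up and down motif ratios were 1.36 and 1.25. With the assigned gene, the share of genes with down members was 21.8% and the share of genes without an LPS vs Veh site was 39.8%. With the gene of the moved centre, the share of genes with up members was 47.4% and the share of genes without an LPS vs Veh site was 41.3%. Without repeated scores, the down share in the 3′UTR class was 30.8% and the up and down median scores were 2.05 and 1.99. The alternatives without repeated scores and with the gene of the moved centre were chosen after seeing the data. Why the values moved was not tested. No paired analysis was possible because each deposited site has 1 score for the whole comparison and no column for a replicate, and for the same reason no library could be left out. The depth behind the scores is unknown, so a site missing from a list may have been too thinly covered to be called.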
